A study of Mus musculus with 8 samples.

Results

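The lysosomal gene module described here consists of 35 listed genes, which encode acid hydrolases, lysosomal membrane proteins, the TFEB family of transcription factors and the mannose 6-phosphate receptors, together with every gene whose symbol begins with Atp6v, the subunits of the vacuolar proton pump. Of 56 genes listed or matched, 55 were measured as rows annotated to exactly 1 symbol, among 19938 genes in all, and M6pr was not analysed here. They comprise 22 hydrolases (counting their activator Psap), 21 V-ATPase subunits and 12 other members (8 membrane proteins, 3 transcription factors and Igf2r). Where a gene had several rows, the brightest on average stood for it.

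Levels came from 8 expression arrays of RNA from XCR1+ dendritic cells, the cross-presenting dendritic cell type, sorted from mouse spleen. All 8 samples were sorted as lineage-negative, Bst2-/low, CD11c-high, CD8α+ cells that carry an EYFP reporter for Il12b, the gene of the interleukin 12 subunit p40. The groups were immature cells, negative for CCR7 and for the reporter (n = 3), CCR7+ cells negative for the reporter (CCR7+Il12b-, n = 3), and CCR7+ cells positive for it (CCR7+Il12b+, n = 2). CCR7 is the chemokine receptor that mature dendritic cells display. The labels give no treatment or age for any group, nor whether replicates were separate mice. The p-values therefore only set differences between groups against the spread within groups of these particular samples, and that spread could be technical. In bulk samples such as these, fewer cells of a type and less RNA per cell cannot be told apart.

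Lysosomes degrade material delivered by endocytosis, phagocytosis and autophagy. Their soluble hydrolases are tagged with mannose 6-phosphate and carried by its receptors, and they work at the acid pH kept by the V-ATPase, in which the cytosolic V1 sector hydrolyses ATP and the membrane V0 sector carries protons. TFEB, TFE3 and MITF bind E-box motifs near the start sites of many lysosomal genes. In dendritic cells, lysosomal acidity and proteolysis are regulated during maturation, since the same compartments degrade antigen and load it on MHC class II molecules.

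The E-box at the core of the motif bound by the TFEB family, CACGTG, reads the same on both strands. It was searched in RefSeq promoter windows (build GRCm38.p6) of 300 bases, from 250 bases before to 50 after the gene start. The motif lay in the windows of 15 of 47 members that have a window (31.9%), against 2187 of 27025 genes in all (8.09%) and 1483 of 15614 genes on the array (9.5%). Such motifs are known near many lysosomal genes, so a higher share among members is no new result of these data. A longer form that contains the core, with a T before it and an A after it, lay in the windows of 7 of 47 members (14.9%), against 238 of 15614 genes on the array (1.52%). The 100 bases before the gene start, or the part of them given below, are shown for chosen examples. Lamp1, Atp6v0b and Mcoln1 were higher in CCR7+Il12b+ than in immature cells and hold 2 or more matches. Igf2r was lower and holds 2, and Arsb, the member that fell most, holds none. Members not shown include Atp6v0a1, which rose most, and Tpp1, which also rose, and neither holds a match. Cln3, also not shown, fell and holds 2. Capitals mark the E-box matches, and each sequence reads 5′ to 3′ on the gene's strand.
Lamp1, chr8:13159061-13159160, plus strand: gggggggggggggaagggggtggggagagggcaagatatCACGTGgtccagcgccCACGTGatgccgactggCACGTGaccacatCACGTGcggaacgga
Atp6v0b, chr4:117887340-117887429, minus strand: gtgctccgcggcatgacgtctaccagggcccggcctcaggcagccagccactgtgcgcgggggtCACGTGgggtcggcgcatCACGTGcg
Mcoln1, chr8:3500419-3500518, plus strand: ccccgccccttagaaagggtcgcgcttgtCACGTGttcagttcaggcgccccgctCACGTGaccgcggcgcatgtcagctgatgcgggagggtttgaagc
Igf2r, chr17:12769707-12769806, minus strand: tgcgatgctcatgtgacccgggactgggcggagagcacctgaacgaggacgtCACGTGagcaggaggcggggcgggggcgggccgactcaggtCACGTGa
Arsb, chr13:93771579-93771678, plus strand: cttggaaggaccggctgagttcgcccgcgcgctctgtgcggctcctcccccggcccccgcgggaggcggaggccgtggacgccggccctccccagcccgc
A match in these letters is a description and not a binding site, and binding was not measured here.

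**Figure D1:**
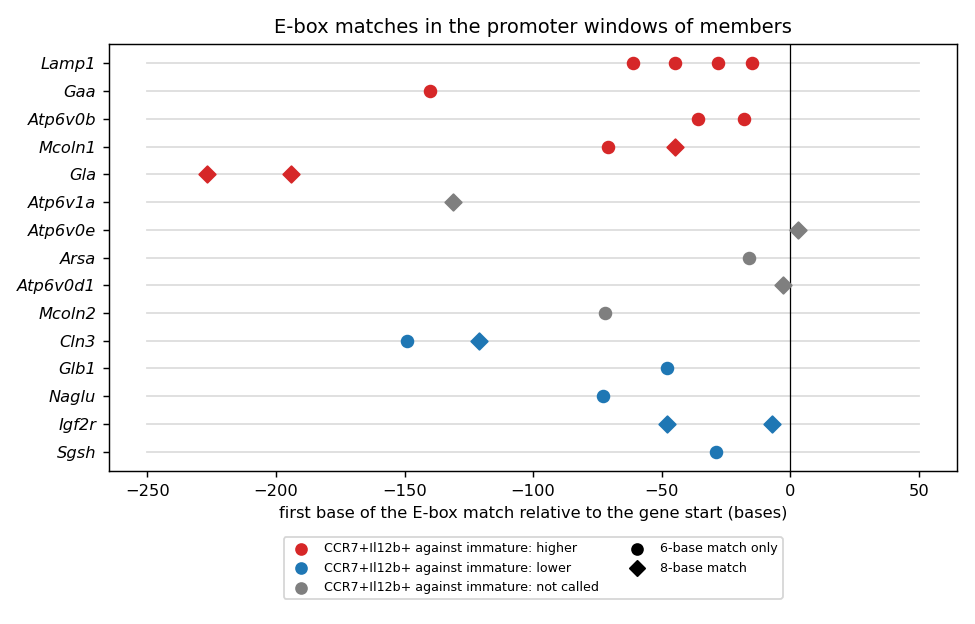
First base of each CACGTG match (points; diamonds mark the longer form) relative to the gene start, in bases, in the promoter windows (grey lines) of the 15 members that hold one, coloured by the call in CCR7+Il12b+ against immature cells. Matches stand in windows of members that rose, fell or were not called; Lamp1 holds 4, at -61, -45, -28 and -15.

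On the arrays, the first principal component over all genes took 77.1% of the variance and placed the immature samples between -55.8 and -47.8, CCR7+Il12b- between 8.20 and 30.1, and CCR7+Il12b+ at 52.2 and 53.6. CCR7+Il12b- replicate 3, at 30.1, stood nearest to CCR7+Il12b+. A background mark was set at a log2 level of 5.03, under which lie 95% of the values of 1194 odorant and vomeronasal receptor genes. The 12 XCR1+ dendritic cell markers checked all had a group mean above it. Their summed linear level was 20375 to 21945 in immature cells, 13017 to 16153 in CCR7+Il12b- and 8437 to 9774 in CCR7+Il12b+. Against immature cells, 6 of 12 were lower in CCR7+Il12b- and 9 of 12 in CCR7+Il12b+. Naaa and Tlr3 fell most in CCR7+Il12b+, both 28.2-fold. Batf3 rose in both fractions, by 0.54 and 0.89 on the log2 scale, and Flt3 and Zbtb46 were not called. Markers of macrophages and monocytes, cells rich in lysosomes, summed to 4266 to 4854, 4690 to 6320 and 4919 to 6352. Hmox1, the brightest of them, weighs most in these sums. Its log2 group means were 11.21, 11.26 and 11.52, and it was not called in any comparison. Of 14 measured, 3 rose and 2 fell in each CCR7+ fraction against immature cells; Spic and Vcam1 were among those that rose, Lyz2 fell 2.74-fold and 8.62-fold in CCR7+Il12b- and CCR7+Il12b+ and Ccr2 fell 3.83-fold and at least 4.16-fold, while Cd5l, C1qc, Mertk, Slc40a1 and Fcgr1 were at or below background in every group. CD11b+ dendritic cell markers summed to 661 to 1048 in immature cells, and to 2665 to 2921 and 2941 to 3073 in the CCR7+ fractions. Of these 8 markers, 4 rose and 1 fell in CCR7+Il12b-, and 3 rose and 1 fell in CCR7+Il12b+. Tmem176a and Tmem176b had the largest rises, were the brightest in the CCR7+ fractions and weigh most in their sums. Their log2 group means were 7.12, 9.96 and 10.32 for Tmem176a and 7.88, 10.12 and 10.33 for Tmem176b. Irf4 rose in both fractions and Sirpa in CCR7+Il12b- only. Cd209a fell in both, Itgam was not called, and Clec4a4 and Mgl2 were below the mark. Plasmacytoid markers summed to 999 to 1209, 696 to 784 and 676 to 687, with 4 of 6 lower in each CCR7+ fraction, and B cell markers to 266 to 327, 521 to 730 and 372 to 403, with 3 of 6 higher in CCR7+Il12b- and 1 higher and 1 lower in CCR7+Il12b+. T and NK cell markers summed to 168 to 179, 203 to 246 and 159 to 169, with 2 of 6 higher in CCR7+Il12b- and 1 lower in CCR7+Il12b+. Of 7 neutrophil markers none was called, and of 2 erythroid markers 1 was higher in each CCR7+ fraction. The part of all these cells in the results was not tested.

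Of 22 hydrolases, 10 fell in CCR7+Il12b- and 12 in CCR7+Il12b+ against immature cells and 4 rose in each. Most V-ATPase subunits did not pass the test, with or without those at or below background. In CCR7+Il12b- against immature cells, 24 of 55 members were called, at an adjusted p under 0.05 (limma, Benjamini-Hochberg over all genes), where 23.6% of all genes and 35.6% of the 12689 genes above background in a group were called. Of these 24, 9 were higher and 15 lower, where 9.10% of all genes were called higher and 14.5% lower (13.1% and 22.5% of those above background). Hydrolases were higher for 4, lower for 10 and not called for 8 of 22, with a median log2 difference of -0.23. V-ATPase subunits were higher for 3, lower for 2 and not called for 16 of 21, with a median of 0.03. All 22 hydrolases lay above the background mark in a group, Arsa in CCR7+Il12b+ only. Among subunits only 16 did, Atp6v1e2 in CCR7+Il12b+ only. Of those 16, 11 were not called, and their median was also 0.03. The median was 0.06 over all genes and -0.003 over those above background. Without immature replicate 2, 12 members were called in this comparison, 5 hydrolases lower among them.

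In CCR7+Il12b+ against immature cells, 31 of 55 members were called, 11 higher and 20 lower, where 32.0% of all genes were called, 14.1% higher and 17.9% lower. Among genes above background these shares were 47.0%, 19.5% and 27.6%. Hydrolases were higher for 4, lower for 12 and not called for 6 of 22, with a median of -0.70. For V-ATPase subunits, 3 were higher, 3 lower and 15 not called, with a median of 0.10 beside 0.09 for all genes. Of the 16 subunits above background, 10 were not called, with a median of 0.14 beside 0.03 for all genes above background. At least 2-fold differences were called for 8 hydrolases, of which 6 fell, and for 3 V-ATPase subunits, of which 2 rose, where 4.51% of all genes rose and 8.21% fell by that much. Among the 12689 genes above background, 894 rose and 1633 fell by that much. The subunit that fell, Atp6v0a2, did so in only 1 of its 2 rows. Both comparisons share the immature samples.

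Between the CCR7+ fractions, 11 of 55 members were called, 4 higher and 7 lower in CCR7+Il12b+, where 7.08% of all genes were called, 2.61% higher and 4.47% lower. Among genes above background these shares were 11.0%, 4.03% and 6.97%. For hydrolases the counts were 1 higher, 5 lower and 16 not called, with a median of -0.23, and for V-ATPase subunits 2, 1 and 18, with a median of 0.10. Of the 16 subunits above background, 13 were not called, with a median of 0.15. The median was 0.02 over all genes and 0.01 over those above background. Without CCR7+Il12b+ replicate 1, which leaves 1 sample in that group, 5 members were called. The difference between hydrolases and V-ATPase subunits was itself not tested. Counting genes called or not, groups did not overlap in CCR7+Il12b- against immature cells for 15 of 22 hydrolases and 8 of 21 V-ATPase subunits, beside 41.3% of all genes. In CCR7+Il12b+ against immature cells these counts were 19 and 11, beside 57.1% of all genes, and between the CCR7+ fractions 14 and 9, beside 29.6%. Of the 12689 genes above background, 6679, 8668 and 4731 did not overlap in these comparisons, in the same order.

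**Figure D2:**
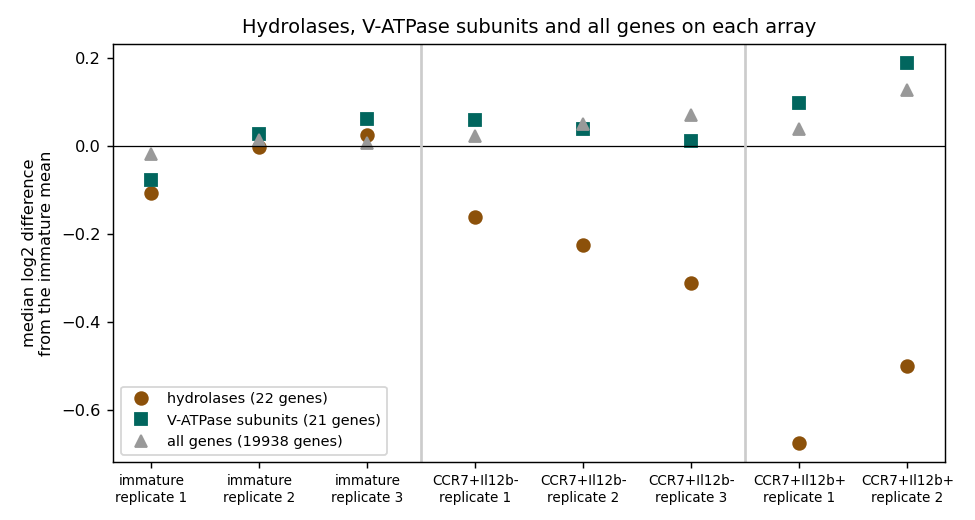
Median log2 difference from the immature mean (y axis) on each of the 8 arrays (x axis) over the 22 hydrolases, the 21 V-ATPase subunits and all 19938 genes. The hydrolase median lay between -0.31 and -0.16 on the CCR7+Il12b- arrays and at -0.67 and -0.50 on the CCR7+Il12b+ arrays, while the V-ATPase median stayed between -0.08 and 0.19 on all 8.

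The hydrolase medians of the arrays did not overlap between any 2 groups, and those of the V-ATPase overlapped between immature and CCR7+Il12b- cells. In CCR7+Il12b+ against immature cells, the V-ATPase median turned to -0.01 when the columns were quantile normalized and to -8.32e-05 with cyclic loess. Those scalings also moved the median of all genes by -0.11 and -0.10, so the position of the pump's median relative to all genes changed little. The hydrolase median was -0.68 and -0.64 under them.

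**Figure D3:**
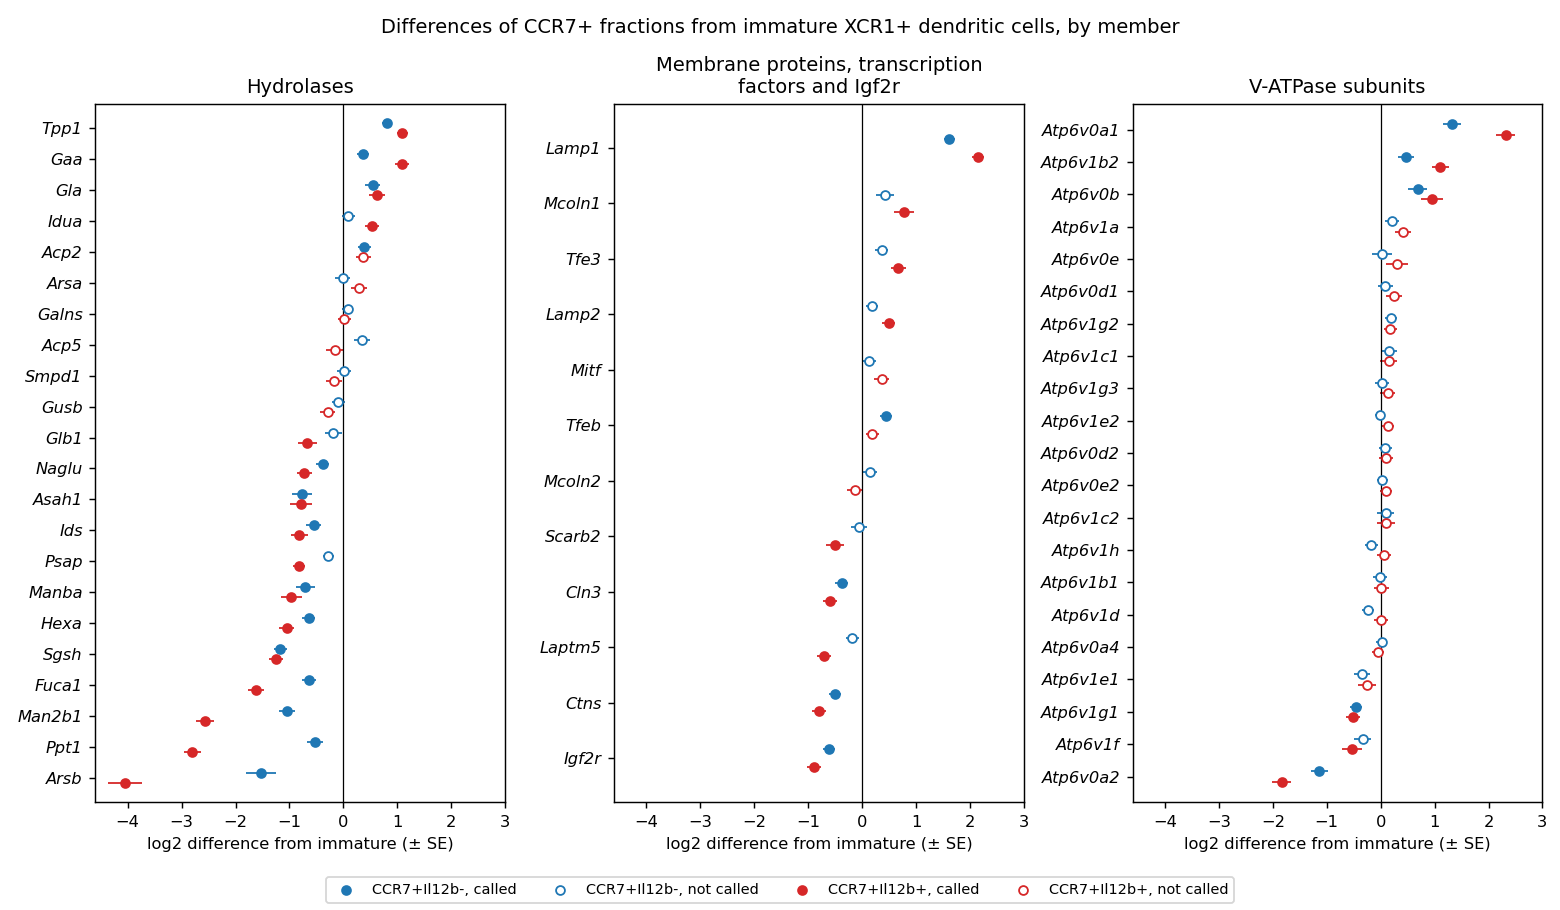
Log2 difference from immature cells (x axis, ± SE of the model) of each of the 55 members in CCR7+Il12b- (blue) and CCR7+Il12b+ (red), in panels for hydrolases, other members and V-ATPase subunits; filled points were called. Values run from -4.05 for Arsb to 2.32 for Atp6v0a1, and most V-ATPase points lie near 0.

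The largest falls among hydrolases were those of Arsb, Ppt1, Man2b1 and Fuca1, each lower in both CCR7+ fractions and lower again in CCR7+Il12b+ than in CCR7+Il12b-. Arsb, arylsulfatase B, removes sulfate from dermatan and chondroitin sulfate. Its log2 level was 10.17, 10.44 and 10.31 in immature cells, 9.07, 9.28 and 8.0 in CCR7+Il12b- and 5.94 and 6.56 in CCR7+Il12b+. The 3 groups did not overlap, and CCR7+Il12b- replicate 3 lay closest to the CCR7+Il12b+ samples. Arsb fell 16.6-fold in CCR7+Il12b+ against immature cells (log2 difference -4.05 ± 0.32 SE, adjusted p = 2.78e-06), 2.88-fold in CCR7+Il12b- (-1.52 ± 0.28, adjusted p = 0.00251) and 5.77-fold between the CCR7+ fractions (-2.53 ± 0.32, adjusted p = 0.000989). A second row of Arsb gave log2 differences of -3.60, -1.35 and -2.25 in the same order.

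Ppt1, palmitoyl-protein thioesterase, removes fatty acids from proteins under degradation. Its level was 12.18, 12.15 and 12.17 in immature cells, 11.79, 11.86 and 11.28 in CCR7+Il12b-, and 9.30 and 9.43 in CCR7+Il12b+. Immature and CCR7+Il12b- samples thus lay close together without overlap, and the CCR7+Il12b+ samples far below both. The fall was 1.44-fold in CCR7+Il12b- (log2 difference -0.53 ± 0.15, adjusted p = 0.0226) and 6.97-fold in CCR7+Il12b+ (-2.80 ± 0.16, adjusted p = 3.85e-07), which was 4.84-fold below CCR7+Il12b- (-2.28 ± 0.16, adjusted p = 9.37e-05). The call in CCR7+Il12b- was lost without any one immature replicate or without CCR7+Il12b- replicate 3 (adjusted p = 0.0511 to 0.0705).

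Man2b1, lysosomal alpha-mannosidase, and Fuca1, alpha-fucosidase, trim the sugar chains of glycoproteins. Man2b1 stood at 10.89, 10.89 and 10.87 in immature cells, 9.84, 10.12 and 9.55 in CCR7+Il12b- and 8.15 and 8.48 in CCR7+Il12b+, with no overlap. It fell 2.06-fold in CCR7+Il12b- (-1.05 ± 0.15, adjusted p = 0.000455) and 5.93-fold in CCR7+Il12b+ (-2.57 ± 0.17, adjusted p = 7.48e-07). Fuca1 was at 10.84, 10.73 and 10.73, then 10.31, 10.24 and 9.82, then 9.21 and 9.07 in the same order of groups, again with no overlap. The falls of Fuca1 were 1.56-fold (-0.64 ± 0.14, adjusted p = 0.00535) and 3.08-fold (-1.62 ± 0.15, adjusted p = 1.04e-05). Between the CCR7+ fractions, Man2b1 fell by a further 1.52 ± 0.17 (adjusted p = 0.00048) and Fuca1 by 0.98 ± 0.15 (adjusted p = 0.00298) on the log2 scale. Of the other members with this role, Manba, beta-mannosidase, fell by 0.71 and 0.96 in the CCR7+ fractions against immature cells, and the call in CCR7+Il12b- was lost without immature replicate 2 or 3 (adjusted p = 0.0566 and 0.0668).

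Gaa, the acid glucosidase that degrades glycogen, rose. Its level was 6.70, 6.77 and 6.98 in immature cells, 7.18, 7.09 and 7.30 in CCR7+Il12b- and 7.93 and 7.87 in CCR7+Il12b+, without overlap. It was 2.12-fold higher in CCR7+Il12b+ than in immature cells (1.08 ± 0.13, adjusted p = 5.15e-05) and 1.64-fold higher than in CCR7+Il12b- (0.71 ± 0.13, adjusted p = 0.00652). The smaller rise in CCR7+Il12b- (0.37 ± 0.11, adjusted p = 0.0346) was lost without immature replicate 1 or 2, without CCR7+Il12b- replicate 1 or 3, with median centring, and with a trended, robust fit (adjusted p = 0.0652 to 0.124).

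Among the other 6 enzymes of glycosaminoglycan breakdown, Sgsh, the heparan N-sulfatase, fell in both CCR7+ fractions. Its level was 7.22, 7.14 and 7.19 in immature cells, 6.14, 5.88 and 6.02 in CCR7+Il12b- and 5.77 and 6.10 in CCR7+Il12b+. The CCR7+ fractions overlapped each other and not the immature samples. Sgsh fell 2.25-fold (-1.17 ± 0.12, adjusted p = 4.87e-05) and 2.38-fold (-1.25 ± 0.13, adjusted p = 2.65e-05), and the CCR7+ fractions differed by -0.08 ± 0.13 (adjusted p = 0.835). Ids, iduronate sulfatase, fell by 0.55 ± 0.15 and 0.81 ± 0.17, and Naglu, which removes N-acetylglucosamine from heparan sulfate, by 0.39 ± 0.13 and 0.73 ± 0.14. The calls in CCR7+Il12b- were lost for Ids on leaving out immature replicate 2, immature replicate 3, CCR7+Il12b- replicate 1 or CCR7+Il12b- replicate 3 (adjusted p = 0.0525 to 0.0907). For Naglu they were lost without any one of the 6 arrays of that comparison and with the replicate block (0.0509 to 0.190). Idua, which removes iduronic acid, was 0.53 ± 0.13 higher in CCR7+Il12b+ (adjusted p = 0.0100), a call lost without CCR7+Il12b+ replicate 1 (adjusted p = 0.0786). Gusb, beta-glucuronidase, and Galns, a galactosamine sulfatase, were not called in any comparison.

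The 7 genes of sphingolipid breakdown comprised 1 that rose and 4 that fell in CCR7+Il12b+ against immature cells. Hexa, the alpha subunit of beta-hexosaminidase, was at 9.43, 9.68 and 9.67 in immature cells, 9.13, 8.87 and 8.87 in CCR7+Il12b- and 8.61 and 8.47 in CCR7+Il12b+. The groups did not overlap, and Hexa fell 1.56-fold (-0.64 ± 0.12, adjusted p = 0.00256) and 2.08-fold (-1.05 ± 0.13, adjusted p = 9.95e-05), while the CCR7+ fractions differed by -0.41 ± 0.13 (adjusted p = 0.102; 0.0457 with quantile normalization). Psap, the precursor of the saposins that present lipids to these enzymes, was at 12.04, 12.03 and 12.05, then 11.80, 11.85 and 11.63, then 11.23 and 11.19, with no overlap. Its fall in CCR7+Il12b+ was 1.77-fold (-0.83 ± 0.11, adjusted p = 0.000168), and the difference in CCR7+Il12b- was -0.28 ± 0.10 (adjusted p = 0.0714; 0.0305 and 0.0356 with median centring or a trended, robust fit). CCR7+Il12b+ lay 0.55 ± 0.11 below CCR7+Il12b- for Psap (adjusted p = 0.0140), a call lost without CCR7+Il12b- replicate 2 or either CCR7+Il12b+ replicate, and in a fit of those 2 groups alone (adjusted p = 0.0544 to 0.0624).

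Asah1, acid ceramidase, was at 9.19, 9.49 and 9.37 in immature cells, 8.99, 8.43 and 8.33 in CCR7+Il12b- and 8.80 and 8.31 in CCR7+Il12b+. Both fractions lay below the immature samples and overlapped each other. Asah1 fell by 0.77 ± 0.18 and 0.79 ± 0.21, calls that were lost without immature replicate 2 in CCR7+Il12b- (adjusted p = 0.0520) and without CCR7+Il12b+ replicate 2 in CCR7+Il12b+ (adjusted p = 0.152). Glb1, beta-galactosidase, fell by 0.67 ± 0.17 in CCR7+Il12b+, a call lost without CCR7+Il12b+ replicate 1 (adjusted p = 0.107). The member that rose was Gla, alpha-galactosidase A, at 9.07, 9.20 and 9.22 in immature cells, 9.40, 9.88 and 9.83 in CCR7+Il12b- and 9.77 and 9.81 in CCR7+Il12b+. All CCR7+ samples exceeded all immature ones. Its differences were 0.54 ± 0.13 (adjusted p = 0.0128) and 0.62 ± 0.15 (adjusted p = 0.00772), lost without CCR7+Il12b- replicate 2 (adjusted p = 0.0574) and without CCR7+Il12b+ replicate 2 (adjusted p = 0.0504) respectively. Arsa, which desulfates sulfatide, and Smpd1, acid sphingomyelinase, were not called in any comparison. Arsa lay near the background mark, with group means of 4.97, 4.95 and 5.25.

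Tpp1, a tripeptidyl peptidase, rose 1.75-fold in CCR7+Il12b- (0.81 ± 0.09, adjusted p = 0.000129) and 2.14-fold in CCR7+Il12b+ (1.09 ± 0.11, adjusted p = 1.36e-05). Its level was 7.20, 7.26 and 7.26 in immature cells, 8.02, 8.03 and 8.09 in CCR7+Il12b- and 8.30 and 8.37 in CCR7+Il12b+. The groups did not overlap, although the CCR7+ fractions differed by 0.28 ± 0.11 without a call (adjusted p = 0.163). Ppt1 and Tpp1 are both mutated in neuronal ceroid lipofuscinosis, and here their transcripts moved in opposite directions. Of the acid phosphatases, Acp2 was 0.39 ± 0.12 higher in CCR7+Il12b- (adjusted p = 0.0394), a call lost without any one immature replicate, without CCR7+Il12b- replicate 1 or 2, with median centring, with the replicate block and with a trended, robust fit (adjusted p = 0.0517 to 0.127). In CCR7+Il12b+ Acp2 missed the threshold (0.37 ± 0.14, adjusted p = 0.0587) and was called with quantile normalization and cyclic loess (0.0132 and 0.0194). Acp5 was not called in any comparison, but was called higher in CCR7+Il12b- under the same scalings (adjusted p = 0.0442 and 0.0466, against 0.132).

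Across the 22 hydrolases, those with a higher row level in immature cells had the lower differences in CCR7+Il12b+ (Pearson's r = -0.60, Spearman's rho = -0.55, across genes, which are not independent replicates). The immature mean enters both axes, and probe sets differ in response. The same r was -0.30 over all genes, -0.32 over the 12689 genes above background and -0.08 over the 21 V-ATPase subunits. Spearman's rho was -0.28, -0.38 and -0.05 in the same order. Only 16 of these subunits lay above background in a group.

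**Figure D4:**
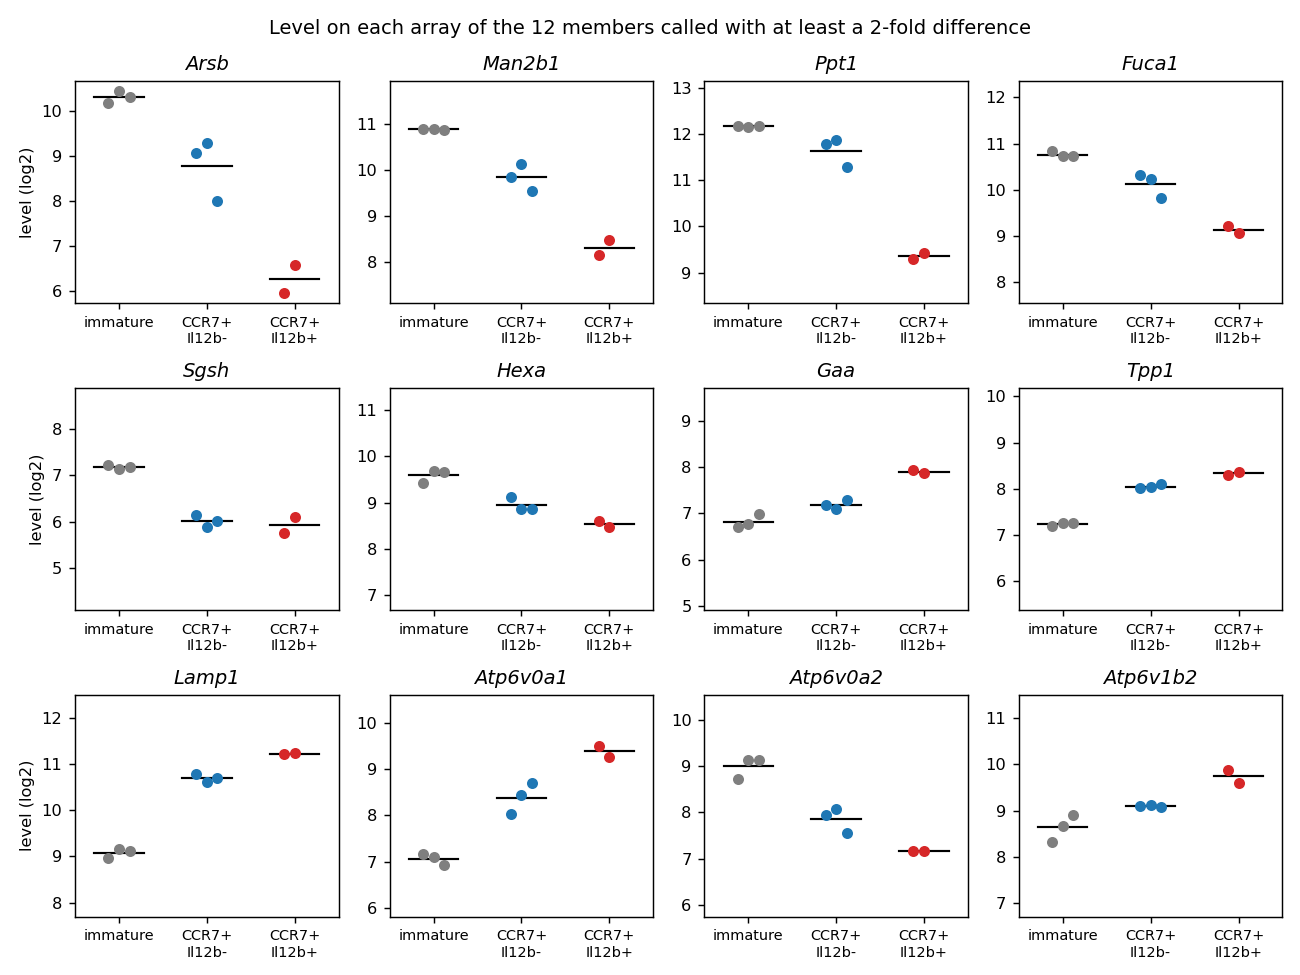
Log2 level (y axis) on each array (points) with the group mean (lines) of the 12 members called in a comparison with at least a 2-fold difference. In each panel all CCR7+ samples stand on one side of the immature ones, above them for Gaa, Tpp1, Lamp1, Atp6v0a1 and Atp6v1b2 and below them for the other 7. A second row of Atp6v0a2, not drawn, was flat.

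Among membrane proteins, Lamp1, a glycoprotein that coats the inner face of the lysosomal membrane, rose most. Its level was 8.96, 9.16 and 9.12 in immature cells, 10.78, 10.62 and 10.70 in CCR7+Il12b- and 11.22 and 11.23 in CCR7+Il12b+. The groups did not overlap, and the replicates of each lay close together. Lamp1 was 3.08-fold higher in CCR7+Il12b- (1.62 ± 0.10, adjusted p = 1.39e-06) and 4.42-fold higher in CCR7+Il12b+ (2.15 ± 0.11, adjusted p = 2.11e-07). The difference of 0.52 ± 0.11 between the CCR7+ fractions (adjusted p = 0.0195) was lost without CCR7+Il12b- replicate 2 or either CCR7+Il12b+ replicate, with the replicate block and in a fit of those 2 groups alone (adjusted p = 0.0568 to 0.0787). Its paralog Lamp2, which also serves chaperone-mediated autophagy, was at 8.21, 8.42 and 8.43, then 8.62, 8.54 and 8.45, then 8.81 and 8.89, without overlap. Lamp2 was called in CCR7+Il12b+ against immature cells only (0.49 ± 0.12, adjusted p = 0.00796), a call lost without CCR7+Il12b+ replicate 2 (adjusted p = 0.0504). In CCR7+Il12b- its difference was 0.18 ± 0.11 (adjusted p = 0.266; 0.0454 with cyclic loess).

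Mcoln1, the lysosomal calcium channel TRPML1, was at 7.90, 7.55 and 7.61 in immature cells, 8.19, 8.16 and 7.98 in CCR7+Il12b- and 8.80 and 8.14 in CCR7+Il12b+. The CCR7+ fractions lay above the immature samples and overlapped each other. Mcoln1 was called in CCR7+Il12b+ (0.79 ± 0.19, adjusted p = 0.00697), a call lost without CCR7+Il12b+ replicate 1, the higher sample (adjusted p = 0.0690). Its difference in CCR7+Il12b- was 0.42 ± 0.17 (adjusted p = 0.0956), called in 5 settings, among them without either CCR7+Il12b+ replicate (0.0282 to 0.0359). Ctns, the cystine exporter, fell by 0.50 ± 0.11 (adjusted p = 0.00685) and 0.80 ± 0.12 (adjusted p = 0.000404), from 6.42, 6.64 and 6.68 in immature cells to 6.17, 6.08 and 5.99 in CCR7+Il12b- and 5.73 and 5.83 in CCR7+Il12b+. These groups did not overlap. Laptm5, a transmembrane protein of lymphoid and myeloid lysosomes, was at 12.09, 12.35 and 12.34 in immature cells, 12.02, 12.23 and 11.98 in CCR7+Il12b-, and 11.45 and 11.65 in CCR7+Il12b+, where it fell by 0.71 ± 0.14 (adjusted p = 0.00187). Both CCR7+Il12b+ samples stood below all the others, and CCR7+Il12b- overlapped immature cells.

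Cln3, a membrane protein mutated in juvenile neuronal ceroid lipofuscinosis, fell by 0.38 ± 0.12 (adjusted p = 0.0459) and 0.60 ± 0.14 (adjusted p = 0.00586), from 8.72, 8.40 and 8.54 in immature cells to 8.33, 8.20 and 8.0 in CCR7+Il12b- and 7.92 and 8.0 in CCR7+Il12b+. The CCR7+ samples stood below the immature ones. Its call in CCR7+Il12b- was lost without any single array other than CCR7+Il12b- replicate 1, among other settings (adjusted p = 0.0518 to 0.158). Scarb2, the receptor that carries glucocerebrosidase, fell by 0.50 ± 0.17 in CCR7+Il12b+ (adjusted p = 0.0407), lost without immature replicate 2 or 3, CCR7+Il12b- replicate 2 or CCR7+Il12b+ replicate 2, with cyclic loess, with the replicate block and in a fit of those 2 groups alone (adjusted p = 0.0547 to 0.384). The call of Laptm5 between the CCR7+ fractions (-0.52 ± 0.14, adjusted p = 0.0421) was lost in 9 settings, among them without immature replicate 2 or 3, CCR7+Il12b- replicate 1 or 2 or either CCR7+Il12b+ replicate (adjusted p = 0.0537 to 0.206). Mcoln2, a relative of Mcoln1, was at or below the background mark in every group.

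Differences among the transcription factors were under 2-fold. Tfeb was at 6.75, 6.60 and 6.83 in immature cells, 7.28, 7.09 and 7.16 in CCR7+Il12b- and 6.90 and 6.93 in CCR7+Il12b+. Its highest samples were thus those of CCR7+Il12b-, and no groups overlapped. Tfeb rose by 0.45 ± 0.11 in CCR7+Il12b- (adjusted p = 0.0100), a call lost without immature replicate 2 (adjusted p = 0.0595), and differed by 0.19 ± 0.12 in CCR7+Il12b+ (adjusted p = 0.253). Tfe3 was at 6.91, 7.10 and 7.08, then 7.56, 7.44 and 7.18, then 7.79 and 7.62, without overlap, and rose by 0.67 ± 0.14 in CCR7+Il12b+ (adjusted p = 0.00291). The difference of Tfe3 in CCR7+Il12b- was 0.36 ± 0.12 (adjusted p = 0.0563) and was called in 4 settings, among them without CCR7+Il12b- replicate 3 (0.00949 to 0.0498). Mitf lay near the background mark, at 4.88, 4.99 and 4.85, then 5.06, 4.81 and 5.25, then 5.21 and 5.33, and was not called (adjusted p = 0.0709 in CCR7+Il12b+, and 0.0430 to 0.0450 without CCR7+Il12b- replicate 3 or in a fit of the 2 groups alone); its other row had group means of 2.70 to 2.80. TFEB and its relatives are controlled largely by their location in the cell, which these arrays do not measure.

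Igf2r, the large mannose 6-phosphate receptor that carries new hydrolases to endosomes, fell. Its level was 6.88, 6.93 and 7.14 in immature cells, 6.23, 6.42 and 6.46 in CCR7+Il12b- and 6.05 and 6.12 in CCR7+Il12b+, with no overlap. Igf2r was 1.53-fold lower in CCR7+Il12b- (-0.61 ± 0.11, adjusted p = 0.00246) and 1.86-fold lower in CCR7+Il12b+ (-0.90 ± 0.13, adjusted p = 0.000221). The CCR7+ fractions differed by -0.28 ± 0.13 (adjusted p = 0.263).

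Within the V-ATPase, 2 a subunits of the V0 sector, Atp6v0a1 and Atp6v0a2, moved most. They moved in opposite directions, although the fall of Atp6v0a2 held for only 1 of its 2 rows. These subunits form the path of the protons, and their isoforms direct the pump to different membranes. Atp6v0a1 was at 7.16, 7.11 and 6.92 in immature cells, 8.02, 8.43 and 8.70 in CCR7+Il12b- and 9.49 and 9.27 in CCR7+Il12b+. With no overlap between groups, it rose 2.50-fold (1.32 ± 0.16, adjusted p = 0.000181) and 4.99-fold (2.32 ± 0.18, adjusted p = 2.85e-06). Between the CCR7+ fractions it was 2.00-fold higher in CCR7+Il12b+ (0.998 ± 0.18, adjusted p = 0.0076), a call lost without CCR7+Il12b+ replicate 1 (adjusted p = 0.0782).

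Atp6v0a2 was at 8.73, 9.13 and 9.14 in immature cells, 7.94, 8.08 and 7.55 in CCR7+Il12b- and 7.16 and 7.17 in CCR7+Il12b+. These samples did not overlap, and Atp6v0a2 fell 2.21-fold (-1.14 ± 0.16, adjusted p = 0.000356) and 3.57-fold (-1.83 ± 0.17, adjusted p = 1.18e-05). Its 2 rows disagreed. The other row had group means of 7.16, 7.24 and 7.24 and differences from immature cells of 0.08 and 0.08, so the fall holds for 1 row only. The call between the CCR7+ fractions (-0.69 ± 0.17, adjusted p = 0.0369) was lost without immature replicate 2 or 3, CCR7+Il12b- replicate 1 or 2 or either CCR7+Il12b+ replicate, and in 3 other settings (adjusted p = 0.0511 to 0.256). Tcirg1, the a3 subunit that is no member by symbol, was at 9.89, 9.34 and 9.41, then 9.13, 8.83 and 8.91, then 8.76 and 8.19. It fell by 1.07 ± 0.20 in CCR7+Il12b+ (adjusted p = 0.00156) and by 0.59 ± 0.18 in CCR7+Il12b- (adjusted p = 0.0350), the latter lost without immature replicate 1 or 3, without CCR7+Il12b- replicate 2 or 3 and with cyclic loess (adjusted p = 0.0561 to 0.116). Atp6v0a4, best known from kidney, was below the background mark.

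Of the rest of the V0 sector, Atp6v0b, a proteolipid of the rotating ring, was at 9.55, 9.38 and 9.49 in immature cells, 10.38, 9.96 and 10.14 in CCR7+Il12b- and 10.80 and 10.04 in CCR7+Il12b+. All CCR7+ samples exceeded all immature ones, with a wide gap between the CCR7+Il12b+ samples. Atp6v0b rose by 0.69 ± 0.18 (adjusted p = 0.0169) and 0.95 ± 0.20 (adjusted p = 0.00363), the former call being lost on leaving out immature replicate 2, immature replicate 3 or CCR7+Il12b- replicate 1 (adjusted p = 0.0508 to 0.0683). Atp6v0d1, which joins the ring to the stalk, Atp6v0e and Atp6v0e2 were not called, and Atp6v0d2 was below the mark.

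In the V1 sector, Atp6v1b2, the B subunit of most tissues, rose. It was at 8.33, 8.67 and 8.91 in immature cells, 9.11, 9.12 and 9.09 in CCR7+Il12b- and 9.88 and 9.60 in CCR7+Il12b+, with no overlap. The rise was 2.15-fold in CCR7+Il12b+ (1.11 ± 0.16, adjusted p = 0.000305), and smaller in CCR7+Il12b- (0.47 ± 0.15, adjusted p = 0.0387) and between the CCR7+ fractions (0.64 ± 0.16, adjusted p = 0.0403). The call in CCR7+Il12b- was lost without immature replicate 1 or 2 or any one CCR7+Il12b- replicate, with median centring and with the replicate block (adjusted p = 0.0563 to 0.124). The call between the CCR7+ fractions was lost without immature replicate 2 or any one CCR7+ sample, and in the same 2 settings (adjusted p = 0.0505 to 0.223). Atp6v1a, the catalytic partner of the B subunit, was at 7.77, 8.20 and 8.16, then 8.18, 8.20 and 8.38, then 8.50 and 8.41. Its difference of 0.41 ± 0.15 in CCR7+Il12b+ had an adjusted p of 0.0519 and was called in 6 settings, among them without immature replicate 2 or without CCR7+Il12b- replicate 3 (0.0145 to 0.0498).

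Atp6v1g1, a subunit of the outer stalk, was at 9.58, 9.78 and 9.85 in immature cells, 9.39, 9.22 and 9.24 in CCR7+Il12b- and 9.19 and 9.26 in CCR7+Il12b+. Both CCR7+ fractions lay below the immature samples and overlapped each other. Atp6v1g1 fell by 0.45 ± 0.11 (adjusted p = 0.0115; lost without immature replicate 2 or 3, 0.0548 and 0.0619) and 0.51 ± 0.12 (adjusted p = 0.00742), and its second row gave falls of 0.46 and 0.52. Atp6v1f, of the central stalk, was at 9.44, 9.67 and 9.67, then 9.60, 9.27 and 8.90, then 9.16 and 8.96, and fell by 0.53 ± 0.18 in CCR7+Il12b+ (adjusted p = 0.0474). That call was lost in 7 settings, among them without immature replicate 2 or 3, CCR7+Il12b- replicate 2 or either CCR7+Il12b+ replicate (adjusted p = 0.0664 to 0.258). In CCR7+Il12b- its difference was -0.34 ± 0.16 (adjusted p = 0.180), and it was called without replicate 1 of that group (adjusted p = 0.0318). The other V1 subunits above the mark in a group, Atp6v1c1, Atp6v1d, Atp6v1e1, Atp6v1e2, Atp6v1g2 and Atp6v1h, were not called in any comparison. Of these, Atp6v1e2 lay near the mark, with group means of 4.94, 4.93 and 5.07. Atp6v1b1, Atp6v1c2 and Atp6v1g3, isoforms with narrower tissue distribution, were at or below the mark.

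**Figure D5:**
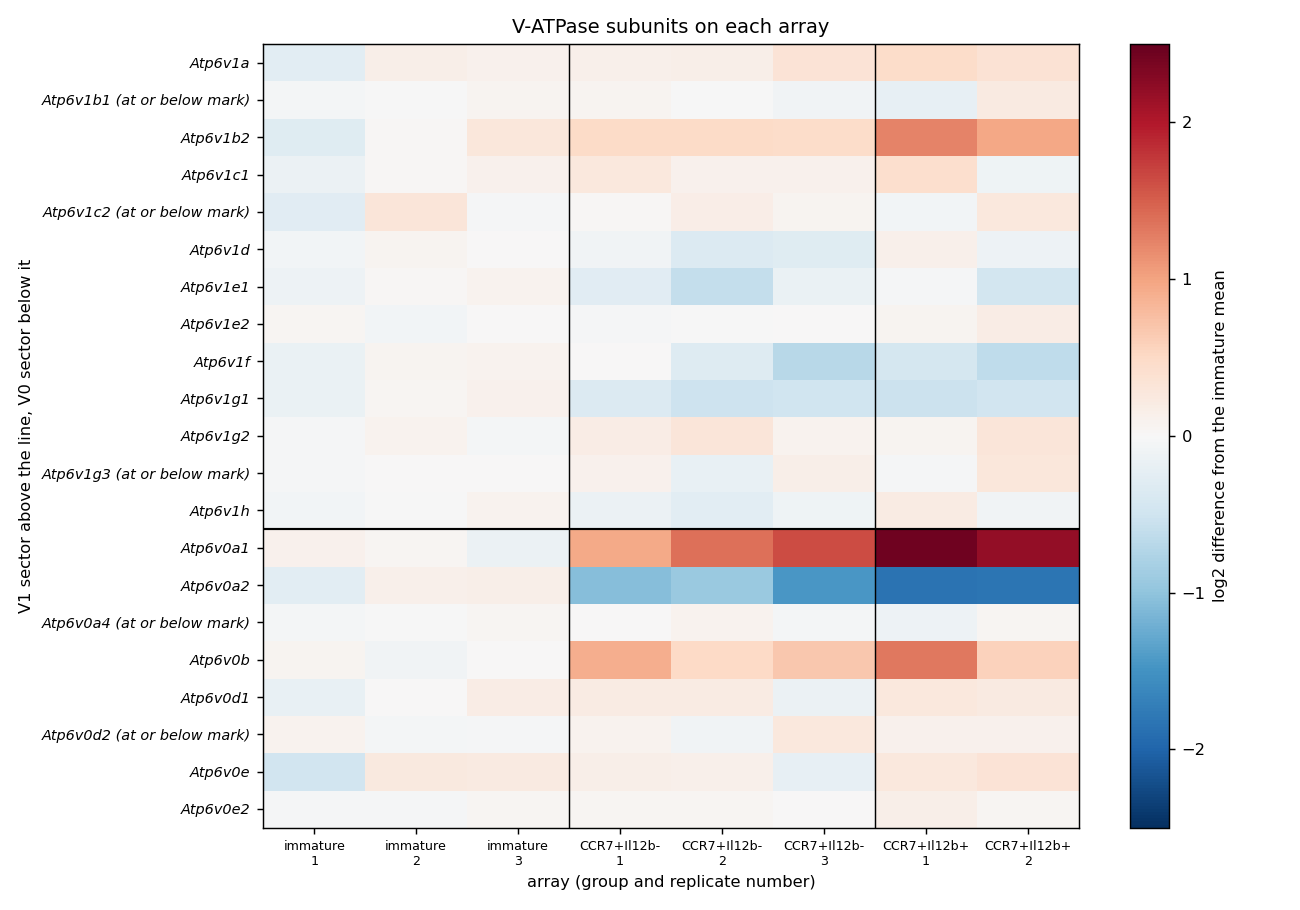
Log2 difference from the immature mean (colour) of the 21 V-ATPase subunits (rows, V1 above the line and V0 below it) on each of the 8 arrays (columns). Atp6v0a1 is the reddest row and Atp6v0a2 the bluest in the CCR7+ columns. Atp6v1b2 and Atp6v0b are red there, and most other rows are pale. A second probe set row of Atp6v0a2, not drawn, was flat.

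Against immature cells, E-box matches were found in members that rose, fell or were not called. Of members with a promoter window, 5 of 10 that were higher in CCR7+Il12b+ than in immature cells held the motif. So did 5 of 17 that were lower and 5 of 20 that were not called. In CCR7+Il12b- against immature cells these counts were 4 of 8, 4 of 12 and 7 of 27. Between the CCR7+ fractions they were 2 of 3 higher, 0 of 6 lower and 13 of 38 not called. By class, it lay in the windows of 6 of 20 hydrolases, 4 of 15 V-ATPase subunits and 5 of 12 other members. Sgsh, Glb1, Naglu, Cln3 and Igf2r fell in CCR7+Il12b+ and hold a match, as do Lamp1, Gaa, Gla, Mcoln1 and Atp6v0b, which rose.

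Other lysosomal genes, from a list of 50 of which 45 were measured, also moved in both directions. Of these 45, 43 lay above the background mark in a group. In CCR7+Il12b- against immature cells, 6 were higher and 15 lower, beside 9.10% and 14.5% of all genes, with a median log2 difference of -0.19. Among all genes above background these shares were 13.1% and 22.5%. In CCR7+Il12b+, 11 were higher and 19 lower, beside 14.1% and 17.9% of all genes (19.5% and 27.6% of those above background), with a median of -0.29 beside 0.09 for all genes. Between the CCR7+ fractions 4 were higher and 8 lower, beside 2.61% and 4.47% (4.03% and 6.97% of those above background), with a median of 0.0065. The largest falls in CCR7+Il12b+ were those of Cd68, a myeloid lysosomal glycoprotein (-2.67 ± 0.23), Lamtor2 (-2.53 ± 0.19), Gm2a, the GM2 activator that serves beta-hexosaminidase (-2.29 ± 0.17), Lipa, acid lipase (-2.12 ± 0.18), Rraga (-1.92 ± 0.20) and Cln8 (-1.79 ± 0.14). Among rises with both groups above the background mark, the largest were those of Ncoa7, a TLDc protein that binds the V-ATPase (2.23 ± 0.13), Laptm4b (1.81 ± 0.12) and Flcn, folliculin (0.82 ± 0.16). For 3 further genes that rose, the immature mean lay below the mark and the fold is a bound: the tetraspanin Cd63 was at least 107-fold higher, Rragd at least 6.26-fold and Slc17a5, the sialic acid exporter, at least 1.51-fold.

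Rag GTPases and the Ragulator complex that anchors them pass amino acid signals from the lysosome to mTORC1. Of the genes of this branch, Rraga was at 8.51, 8.68 and 8.65 in immature cells, 7.79, 7.99 and 7.17 in CCR7+Il12b- and 6.59 and 6.80 in CCR7+Il12b+. Rragd ran the other way, from 4.89, 4.87 and 4.52 to 5.89, 6.11 and 6.54 and then 7.79 and 7.57. Neither gene's groups overlapped. Lamtor2, a Ragulator subunit, stepped down from 8.54, 8.94 and 8.98 to 7.70, 7.15 and 7.20 and then 6.44 and 6.14, while Rragc was not called in any comparison.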

How the data were processed

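The authors deposited log2 values for each probe set; the submitters' processing notes name RMA and oligo. No version, option or genome build is given in the sources used here. Per the labels' protocols, 3 or 20 ng of RNA was amplified in 2 rounds, and which sample had which input is not given. Rank-based normalization cannot show a change of total RNA per cell. Of 35556 rows, 21789 had exactly 1 symbol in the platform's annotation, giving 19938 genes (999 with several rows; the brightest row on average was kept). All 8 samples entered 1 limma 3.58.1 model (R 4.3.3; lmFit, eBayes; 5 residual and 5.86 prior degrees of freedom). Two-sided p-values were adjusted by Benjamini-Hochberg over all genes; calls are at an adjusted p under 0.05. Where a group mean lay below the background mark, a fold is a bound, with the higher of mark and value per array. The script was tested on simulated data. The number of arrays limits precision. All 55 member identifiers were found in the RefSeq table; promoter sequences are RefSeq's (GRCm38.p6). The members, lists and tests were chosen with earlier results of these data known. Every measured member is named; values on all arrays are given for members called with a 2-fold difference, for Lamp1, Lamp2, Tfeb, Tfe3, Mitf and Igf2r, and for up to 4 further called members per role.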

Additional observations from a re-analysis of the deposited data

How the results depend on the processing

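Of the members called, 11 of 24 in CCR7+Il12b- against immature cells, 23 of 31 in CCR7+Il12b+ against immature cells and 5 of 11 between the CCR7+ fractions remained called under every alternative run, and no called direction reversed. In CCR7+Il12b- against immature cells, hydrolases called higher numbered 2 with median centring and 2 with a trended, robust fit, against 4. Between the CCR7+ fractions, V-ATPase subunits called higher numbered 1 with median centring and 1 with the replicate block, against 2; those called lower numbered 0 with the mean of all rows, 0 with the replicate block and 0 in a fit of the 2 groups alone, against 1; and members called numbered 7 with the replicate block and 7 in that fit, against 11. The cause was not tested. Leaving out 1 array at a time gave, for CCR7+Il12b- against immature cells, 12 to 24 members, 2 to 4 hydrolases higher, 5 to 10 lower, 1 to 3 V-ATPase subunits higher, 1 to 3 lower and 3290 to 4962 genes in all. For CCR7+Il12b+ against immature cells it gave 26 to 33, 3 to 4, 11 to 12, 3 to 4, 2 to 3 and 4982 to 6617, and between the CCR7+ fractions 5 to 11, 1 to 1, 4 to 5, 0 to 2, 0 to 1 and 712 to 1771. Without a CCR7+Il12b+ replicate, the lone sample is assumed to vary like the other groups. Replicate numbers were not taken to pair the samples. Deviations of same-numbered samples correlated at -0.17, 0.06 and -0.16 between immature and CCR7+Il12b-, and at -0.17 and -0.08 between immature and CCR7+Il12b+. Between the CCR7+ fractions they correlated at 0.22 and 0.09. Against CCR7+Il12b-, 1 of 3 immature samples matched its own number best. Deviations from a mean of 2 or 3 samples sum to 0, so these values cannot decide whether samples were paired. Probe sets near the background mark have little signal to show a difference.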
